A study of Mus musculus with 12 samples.

Results

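The immunoglobulin variable (V) region genes were examined in mouse ileum, the last part of the small intestine. They were selected on 2 properties: a gene symbol that begins with Ighv, Igkv or Iglv, and a raw count sum of 100 or more over the 12 libraries. Of the 54838 genes in the counts table, 348 carried such a symbol and 167 of these reached the sum. The 167 genes comprised 85 of the heavy chain locus (IGH), 79 of the kappa light chain locus (IGK) and 3 of the lambda light chain locus (IGL). Another 92 V genes had 1 to 99 counts and 89 had none. Since the sum chose the genes, their abundance over all libraries is a description. The groups were not part of the choice, but a gene near the sum could reach it through 1 library alone.

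C57BL/6J mice drank normal water or water with 25 mM ZnSO4 for 7 days and were then injected with PBS or with 200 µg dexamethasone (Dex), a synthetic glucocorticoid, and the ileum was taken 2 h later. This gave 4 groups of 3 libraries, here named water + PBS, water + Dex, ZnSO4 + PBS and ZnSO4 + Dex, each library being named by its group and replicate number. The mice were wild type, no gene was deleted in any group, and the labels give neither age nor the mouse behind each library, so the p-values measure the spread between these libraries. The comparisons ask whether zinc water, Dex or both together went with a different level of V gene transcripts.

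A B cell builds its antibody genes by joining 1 of many V segments to smaller downstream segments, and the joined V exon is then transcribed from its own promoter as part of a heavy, kappa or lambda chain messenger RNA. When such a cell divides and its progeny become plasma cells, all members of the clone carry the same V gene, and each of them makes very large amounts of antibody RNA. In the gut wall the plasma cells mostly secrete IgA, so in a piece of ileum the V genes report which antibodies are being made and not a program switched on in every cell. In bulk tissue, fewer cells of a type and less RNA per cell cannot be told apart.

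Printed here are V exons of the genes on which the results turn, read from the transcripts of GENCODE M21 (build GRCm38/mm10), because a read is assigned to a V gene only through such letters. Each sequence is the last 300 bases of the V exon, or the whole exon where it is shorter, 5′ to 3′. In the first set of 4, capitals mark the stretch from the codon of the conserved cysteine to the 3′ end of the segment, where joining takes place. Igkv6-23 (chr6:70260409-70260706, minus strand) and Ighv1-26 (chr12:114788372-114788671, minus strand) were the most used kappa and heavy chain V genes.
Igkv6-23: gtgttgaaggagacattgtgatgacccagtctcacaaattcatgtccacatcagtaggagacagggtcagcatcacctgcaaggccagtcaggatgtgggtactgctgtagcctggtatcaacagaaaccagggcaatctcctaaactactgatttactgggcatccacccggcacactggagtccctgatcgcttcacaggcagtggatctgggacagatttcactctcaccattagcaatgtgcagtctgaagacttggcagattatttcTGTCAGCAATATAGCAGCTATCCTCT
Ighv1-26: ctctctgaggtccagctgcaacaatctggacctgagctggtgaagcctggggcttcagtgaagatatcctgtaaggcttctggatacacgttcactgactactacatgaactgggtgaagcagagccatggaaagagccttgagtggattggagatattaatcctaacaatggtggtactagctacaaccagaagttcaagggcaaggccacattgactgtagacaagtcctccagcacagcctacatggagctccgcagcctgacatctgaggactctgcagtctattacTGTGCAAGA
Ighv13-2 (chr12:114357759-114358058, minus strand) and Igkv1-99 (chr6:68542123-68542422, plus strand) were dominated by a single library.
Ighv13-2: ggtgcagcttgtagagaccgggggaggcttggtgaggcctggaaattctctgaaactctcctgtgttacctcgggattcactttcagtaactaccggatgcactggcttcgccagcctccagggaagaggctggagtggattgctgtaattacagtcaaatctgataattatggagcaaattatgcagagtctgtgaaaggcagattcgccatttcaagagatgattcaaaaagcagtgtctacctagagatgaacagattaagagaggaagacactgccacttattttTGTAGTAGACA
Igkv1-99: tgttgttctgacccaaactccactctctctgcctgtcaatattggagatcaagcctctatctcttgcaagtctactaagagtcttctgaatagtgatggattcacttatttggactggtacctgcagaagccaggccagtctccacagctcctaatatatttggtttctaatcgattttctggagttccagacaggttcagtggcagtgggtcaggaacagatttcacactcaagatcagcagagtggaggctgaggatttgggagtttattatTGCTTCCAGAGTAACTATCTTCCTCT
In the 2 pairs that follow, capitals mark the 8 bases that differ between the members of a pair over 300 aligned bases. Ighv1-69 (chr12:115623161-115623460, minus strand), which was called in each comparison of zinc with normal water, is shown with Ighv1-59 (chr12:115335082-115335381, minus strand), its closest relative.
Ighv1-69: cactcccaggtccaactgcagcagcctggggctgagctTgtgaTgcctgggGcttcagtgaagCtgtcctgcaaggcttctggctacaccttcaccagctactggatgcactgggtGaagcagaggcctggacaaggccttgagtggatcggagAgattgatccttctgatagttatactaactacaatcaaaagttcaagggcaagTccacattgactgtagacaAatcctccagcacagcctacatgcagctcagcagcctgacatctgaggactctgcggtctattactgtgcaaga
Ighv1-59: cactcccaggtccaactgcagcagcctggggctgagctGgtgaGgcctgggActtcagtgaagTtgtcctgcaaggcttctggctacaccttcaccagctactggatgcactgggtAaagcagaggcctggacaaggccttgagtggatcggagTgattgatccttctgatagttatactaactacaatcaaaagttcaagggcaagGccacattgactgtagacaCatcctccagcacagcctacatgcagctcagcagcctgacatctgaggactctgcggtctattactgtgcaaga
Iglv1 (chr16:19085017-19085316, minus strand), the main lambda V gene, is shown with Iglv2 (chr16:19260401-19260700, minus strand).
Iglv1: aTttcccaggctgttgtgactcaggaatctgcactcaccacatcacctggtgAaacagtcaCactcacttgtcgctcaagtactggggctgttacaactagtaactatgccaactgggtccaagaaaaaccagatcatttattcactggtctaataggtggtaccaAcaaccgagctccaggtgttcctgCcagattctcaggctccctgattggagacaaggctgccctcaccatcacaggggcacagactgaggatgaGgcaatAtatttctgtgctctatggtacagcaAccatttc
Iglv2: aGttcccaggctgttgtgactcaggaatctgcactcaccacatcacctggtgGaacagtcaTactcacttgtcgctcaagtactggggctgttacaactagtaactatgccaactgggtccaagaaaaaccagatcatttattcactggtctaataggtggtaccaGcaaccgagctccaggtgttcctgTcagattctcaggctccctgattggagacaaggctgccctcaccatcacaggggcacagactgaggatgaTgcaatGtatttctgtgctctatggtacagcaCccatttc

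The likeness within these pairs was not unusual for V genes. The median identity of a member to its closest V gene was 95.33%, 13 members had a relative of 98% or more, and the exon of Ighv1-62-2 was identical to that of Ighv1-71, a V gene under the sum of 100. Of the 31-base stretches of a member, a median of 46.6% also occurred in another gene, and 73 members had more than 50% of their stretches in other genes. Reads that mapped to more than 1 place had been left out, so the count of a V gene rests on the bases that set it apart and its level is uncertain where a near-identical relative exists. The members were 163 genes annotated as functional V genes and 4 as pseudogenes, whereas 67 of the 100 heavy chain V genes and 59 of the 81 kappa V genes under the sum were pseudogenes. Just inside the threshold lay Ighv1-37 with 116 counts, Ighv1-62 with 113 and Ighv7-4 with 111, and just outside it Ighv1-71 with 97, Igkv4-54 with 97 and Ighv2-4 with 96.

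Library totals lay between 10760132 and 11827487 counts. Markers of plasma cells were abundant in every library, with summed normalised counts (counts scaled to the mean effective library size) from 23753 in ZnSO4 + Dex 1 to 37033 in water + Dex 2. The summed markers of B cells, by contrast, ranged from 207 in ZnSO4 + PBS 3 to 9613 in water + PBS 2, so libraries of the same group differed widely in them.

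**Figure D1:**
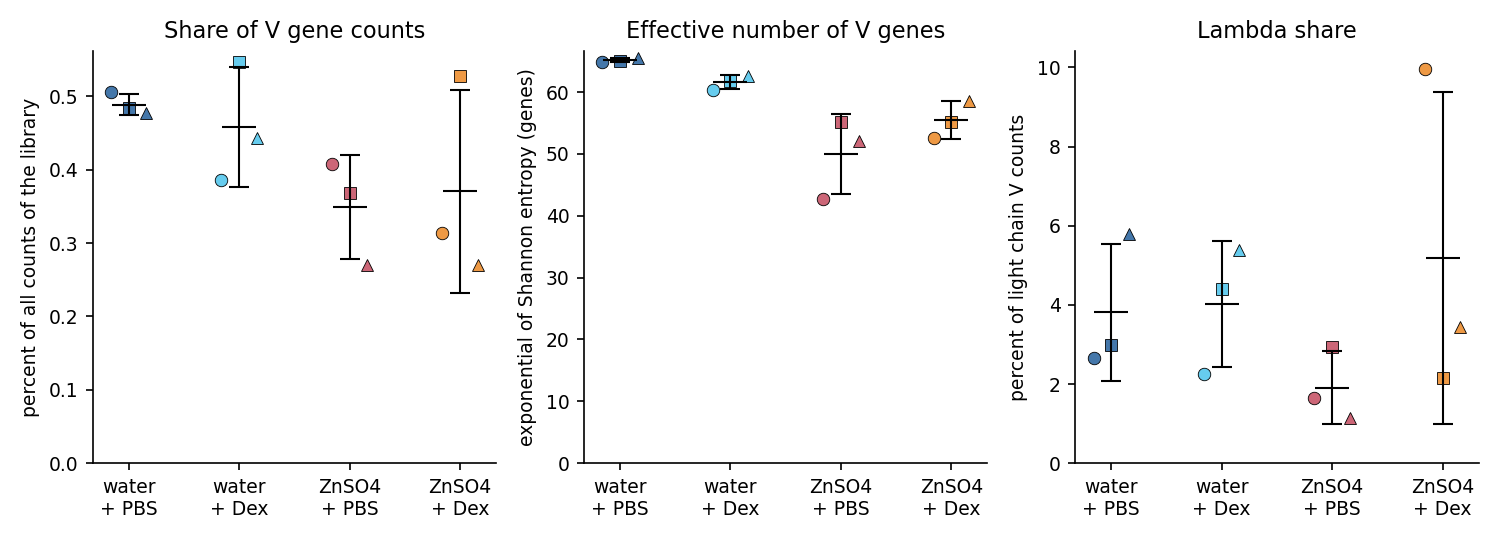
Share of library counts on the 167 V genes (left, percent), effective number of V genes (middle, exponential of the Shannon entropy of V count shares) and lambda share of light chain V counts (right, percent) in the 4 groups. Points are libraries (circle, square and triangle for replicates 1, 2 and 3), bars the mean ± SD of 3. The 6 water libraries have effective numbers of 60.4 to 65.6 and the 6 ZnSO4 libraries 42.8 to 58.6.

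The 167 V genes took 568808 counts in all, which was 99.6% of the counts on V genes, and between 0.270% and 0.546% of a library. In water + PBS the share was 0.505%, 0.484% and 0.477% (mean 0.489% ± 0.0148, SD, n = 3). In water + Dex it was 0.385%, 0.546% and 0.443% (0.458% ± 0.0816). In ZnSO4 + PBS it was 0.408%, 0.369% and 0.271% (0.349% ± 0.0709) and in ZnSO4 + Dex 0.314%, 0.527% and 0.270% (0.370% ± 0.138). Thus all 3 ZnSO4 + PBS libraries were below all 3 water + PBS libraries, while ZnSO4 + Dex 2 exceeded water + PBS and kept the ZnSO4 + Dex group overlapping with both water groups. The 95% Wilson interval of water + PBS 1 ran from 0.501% to 0.509%, so counting error, which is all such an interval covers, was small beside the spread between libraries. The shares are given without a test because they sum over genes chosen with results known.

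Usage of a V gene, meaning its counts per exonic base as a percentage of the sum over all 167, was spread over many genes in each library. Igkv6-23 had the highest mean usage, 6.01%, and was the steadiest, with 3.09% in its lowest and 9.72% in its highest library. Ighv1-26 followed with a mean of 3.56% (1.44% to 7.44%) and Igkv8-27 with 3.53% (0.470% to 12.1%). The next 7 were Igkv19-93, Igkv10-96, Ighv1-39, Ighv3-6, Ighv1-19, Igkv1-110 and Igkv6-15, with means from 2.97% down to 2.03%. The ranges of neighbours in this order overlapped. By family, the 47 Ighv1 genes together held 26.5% of usage (19.0% to 33.4%), the 8 Igkv6 genes 10.3% and the 8 Igkv8 genes 9.36% (1.14% to 16.01%).

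**Figure D2:**
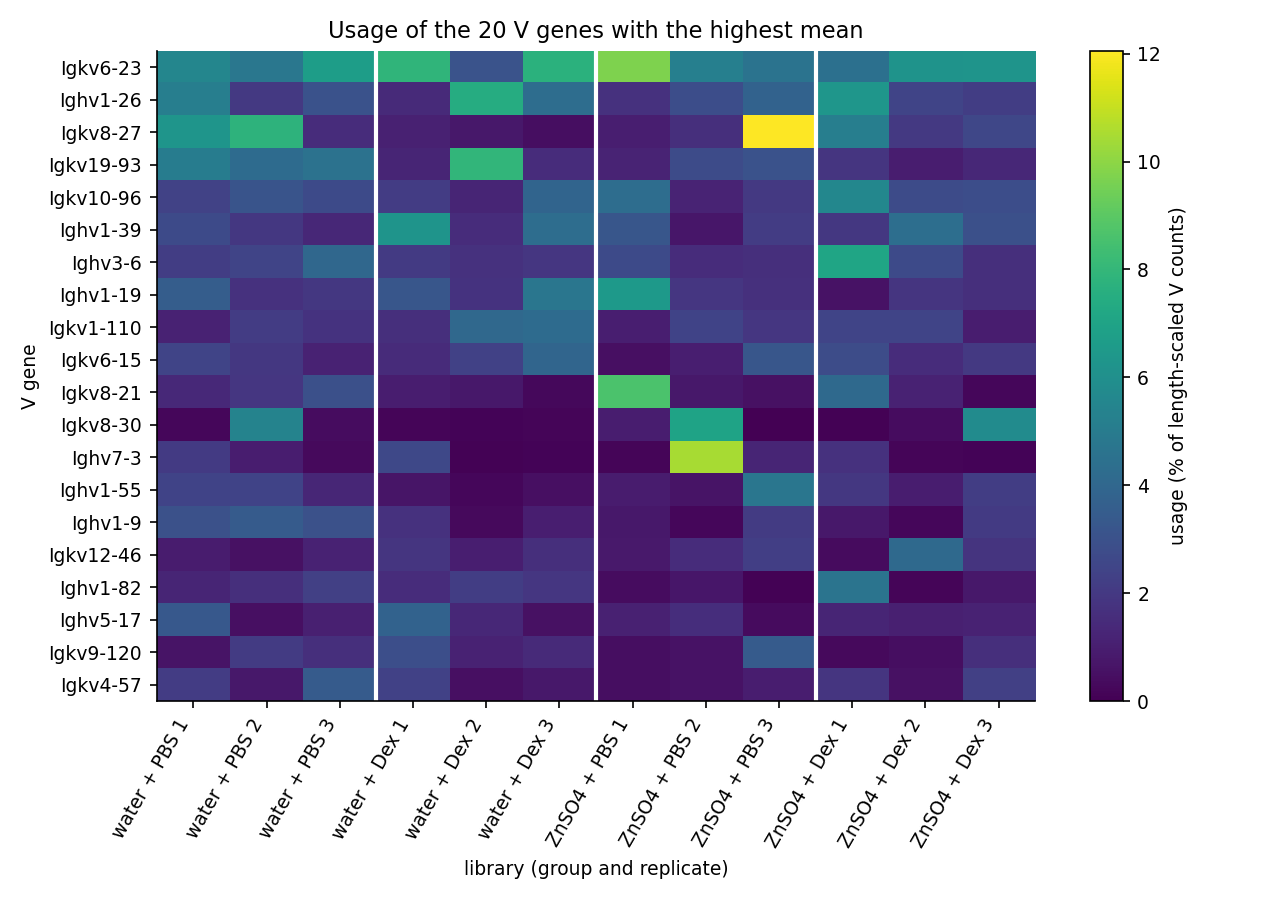
Usage of the 20 V genes with the highest mean (rows) in the 12 libraries (columns, white lines between groups), colour giving the percentage of length-scaled V counts. Igkv6-23 is at 3.09% or more in every library, whereas most other genes are bright in 1 or 2 libraries, such as Igkv8-27 at 12.1% in ZnSO4 + PBS 3.

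The leading heavy chain V gene changed from library to library. In water + PBS it was Ighv1-26 (11.4% of heavy chain usage), Ighv1-9 (8.32%) and Ighv3-6 (9.14%), and in water + Dex Ighv1-39 (13.3%), Ighv1-26 (16.6%) and Ighv1-19 (10.1%). In ZnSO4 + PBS it was Ighv13-2 (16.1%), Ighv7-3 (21.6%) and Ighv1-55 (11.8%), and in ZnSO4 + Dex Ighv3-6 (15.6%), Ighv14-3 (10.8%) and Ighv5-16 (12.6%). Thus 10 different genes led the 12 libraries, and the leader was never the same in all 3 libraries of a group. Among kappa V genes Igkv6-23 led 5 libraries and Igkv8-27 led 3, and Igkv19-93, Igkv8-30, Igkv10-96 and Igkv8-19 led 1 each. Among lambda V genes Iglv1 led 11 libraries with 51.0% to 98.4% of lambda usage, and Iglv3 led ZnSO4 + Dex 1 with 88.3%.

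For kappa V genes, counts also differed between parts of the locus. Only members contribute these counts, and the near, middle and far parts held 33, 23 and 23 kappa members. For IGH the parts held 29, 25 and 31 members. What position itself contributed was not tested. When the IGK V genes in the table were divided in order along chromosome 6 into 3 parts (54, 53 and 53 genes), the part nearest the joining segments took a mean of 52.2% of kappa V counts (40.2% to 59.1% over libraries), the middle part 17.6% (10.2% to 29.0%) and the far part 30.2% (25.0% to 35.3%). These ranges overlapped only between the middle and the far part. For IGH on chromosome 12 the 3 parts took 29.9% (14.9% to 43.3%), 43.1% (29.1% to 57.8%) and 27.0% (12.5% to 40.8%), which overlapped throughout.

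Single libraries held a large part of many V genes. With 12 libraries an even share is 8.33%, yet the median V gene had 30.7% of its normalised counts in its highest library, against 10.8% for 14615 other genes in the same range of summed counts. More than 50% of the normalised counts lay in 1 library for 39 V genes (23.4%; 21 IGH, 17 IGK and 1 IGL) and for 4 other genes (0.0274%). Those 4 were Fgb, Serpina3k and Ahsg, which are liver secretory genes, in water + Dex 3, and Acod1, an inflammatory macrophage enzyme, in water + PBS 2. The 39 V genes were spread over 11 libraries, with 8 in ZnSO4 + Dex 2 and none in water + PBS 3.

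Heavy chain and kappa genes of this kind could peak in the same library. Ighv13-2 had 930, 3.01 and 338 normalised counts in water + PBS, 2.23, 19.4 and 1.08 in water + Dex, 3289, 58.6 and 0.926 in ZnSO4 + PBS and 3.11, 12.5 and 1.07 in ZnSO4 + Dex. Igkv1-99 had 769, 40.1 and 12.4, then 944, 145 and 14.05, then 2703, 2.75 and 0, then 7.26, 160 and 1.07 in the same order. Both were highest in ZnSO4 + PBS 1, which held 70.6% of Ighv13-2 and 56.3% of Igkv1-99. In ZnSO4 + Dex 2 the heavy chain gene Ighv14-4 had 1618 normalised counts (75.9% of its total), and the kappa genes Igkv8-19 and Igkv6-13 had 3819 (75.3%) and 3493 (79.2%). In water + Dex 2 Ighv1-54 reached 1657 (85.9%), while its 11 other libraries had at most 51.6. These are sets of genes that peaked in the same library, and the files do not show which heavy and light chain genes came from the same cell.

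**Figure D3:**
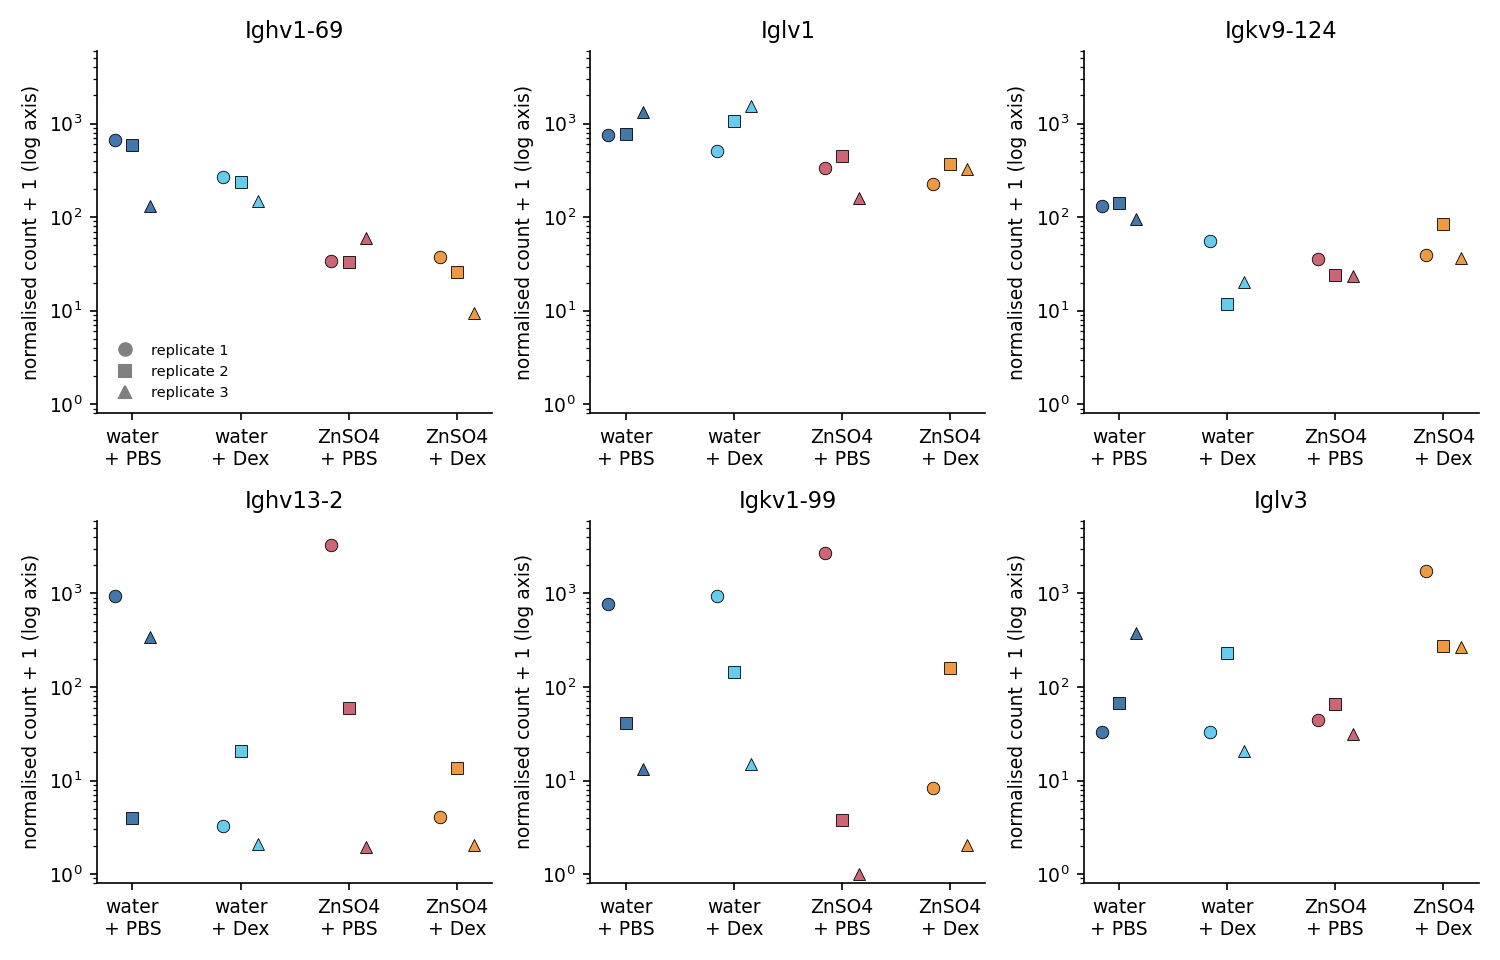
Normalised count + 1 (log axis) of 6 V genes in the 4 groups, with points as libraries and symbols as replicate numbers. Ighv1-69 and Iglv1 are lower in all ZnSO4 libraries than in any water library (2 of 160 V genes, beside 418 of 15938 genes tested). Ighv13-2 and Igkv1-99 span more than 3 orders of magnitude within ZnSO4 + PBS.

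The spread between libraries of a group was larger for V genes than for other genes of like abundance. In the edgeR fit, the biological coefficient of variation (the spread of a gene between libraries of a group beyond counting error, relative to its mean) had a median of 0.796 over the 160 V genes that passed the filter on low counts, against 0.138 for 14538 other genes in the same abundance range. In bins of equal width in log2 CPM (counts scaled to library size), 159 of the 160 lay above the 95th percentile of the other genes, the exception being Ighv1-31 at 0.433. The steadiest were Igkv6-23 (0.347), Iglv1 (0.359), Igkv9-124 (0.400), Ighv3-6 (0.402) and Ighv1-53 (0.416), and the most variable were Igkv1-99 (1.76), Igkv8-34 (1.75), Igkv4-62 (1.58) and Ighv13-2 (1.46). The 7 that were not tested, Igkv9-129, Igkv2-116, Igkv8-18, Ighv7-4, Ighv15-2, Ighv1-37 and Ighv1-49, had sums of 111 to 711 counts. Ighv1-37, for example, had 94.7% of its normalised counts in ZnSO4 + Dex 2.

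**Figure D4:**
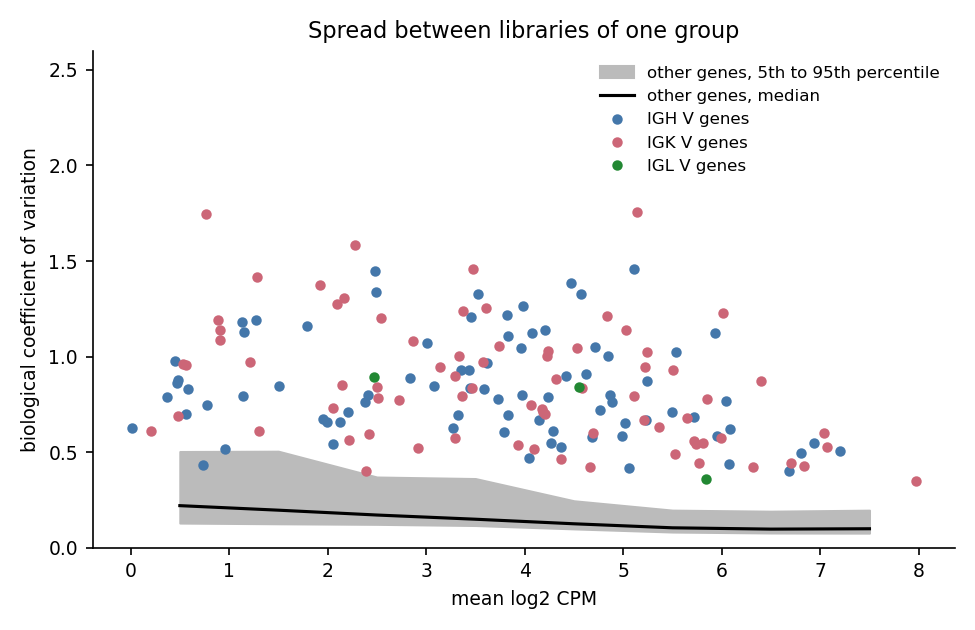
Biological coefficient of variation (vertical axis) against mean log2 CPM (horizontal axis) for the 160 V genes tested, coloured by locus; the black line and grey band are the median and the 5th to 95th percentile of other genes. The V genes lie between 0.347 and 1.76, and 159 exceed the 95th percentile of other genes in their abundance bin.

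Libraries were also compared by the share of V counts on each gene, without scaling by exon length. The Bray-Curtis difference of these shares (0 for identical, 1 for no gene in common) had a median of 0.498 over the 12 pairs of libraries within groups (0.347 to 0.599) and 0.479 over the 54 pairs between groups (0.355 to 0.600). The groups differed in how alike their own libraries were: the 3 pairs within water + PBS were at 0.347, 0.382 and 0.393, those within water + Dex at 0.431 to 0.489, those within ZnSO4 + Dex at 0.508 to 0.539, and those within ZnSO4 + PBS at 0.525 to 0.599. The effective number of V genes, which is the number of equally counted genes that would give the same Shannon entropy of these shares, was 64.9, 65.1 and 65.6 in water + PBS and 60.4, 61.8 and 62.7 in water + Dex. It was 42.8, 55.2 and 52.1 in ZnSO4 + PBS and 52.6, 55.2 and 58.6 in ZnSO4 + Dex. The 6 ZnSO4 libraries were below the 6 water libraries, although the closest of them were only 58.6 and 60.4. Thinned to the same 29883 V counts, the group means were 64.9, 61.6, 50.04 and 55.5 in the same order. The inverse Simpson number, which weights the most used genes more, was 24.0 to 30.9 in ZnSO4 + PBS, but in ZnSO4 + Dex it was 33.3 to 39.5 and overlapped with the 35.8 to 39.1 of water + Dex. The 10 most counted V genes of a library took 37.5% to 39.8% of V counts in water + PBS and 46.5% to 56.5% in ZnSO4 + PBS. These are descriptions, with no test.

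In ZnSO4 + PBS against water + PBS, V genes were mostly lower, and 4 of them passed the test. A gene was called where its adjusted p (edgeR quasi-likelihood test, Benjamini-Hochberg over 15938 genes) was under 0.05 and its log2 fold change beyond 0.8 in size. On this rule 0 V genes rose and 4 (2.5% of 160) fell, while of all genes tested 0.747% rose and 0.954% fell. At an unadjusted p under 0.05, 6 V genes were higher and 29 lower (21.9% of V genes, against 19.8% of all genes), and DESeq2 called 0 higher and 7 lower. The estimated change was below 0 for 117 of the 160 V genes (52.0% of all genes), with a median log2 fold change of −0.92 (−0.01 for all genes). The median was −0.86 over 81 heavy chain genes, −0.93 over 76 kappa genes and −1.60 over the 3 lambda genes. It stayed between −1.21 and −0.73 when each library was left out in turn. With the summed level of constant region genes as a covariate the median was −0.45 and 1 gene was called.

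Among the 4 called genes the largest fall was that of Ighv1-69, an Ighv1 family heavy chain gene. It had 666, 587 and 129 normalised counts in water + PBS and 270, 239 and 146 in water + Dex, against 33.0, 32.0 and 58.4 in ZnSO4 + PBS and 36.3, 25.0 and 8.54 in ZnSO4 + Dex. Every ZnSO4 library was below every water library, which held for 2 of 160 V genes and 418 of 15938 genes tested. The log2 fold change in PBS mice was −3.48 ± 0.59 (SE; adjusted p = 0.0081, edgeR), and it kept its call when any 1 library was left out, with −3.92 to −3.10. Its closest relative, Ighv1-59, had 50.6, 58.2 and 32.3, then 32.3, 145 and 276, then 47.1, 652 and 269, then 88.1, 106 and 788 in water + PBS, water + Dex, ZnSO4 + PBS and ZnSO4 + Dex. Ighv1-59 was not called in any comparison (2.78 ± 1.07 in PBS mice, adjusted p = 0.174), and its highest libraries were ZnSO4 libraries, unlike those of Ighv1-69. Of the 31-base stretches of Ighv1-69, 66.9% occurred in other genes. With the constant region covariate the adjusted p in PBS mice was 0.0947.

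The other calls in PBS mice were less stable. Ighv1-81 had 146, 513 and 803 normalised counts in water + PBS and 41.5, 52.2 and 69.5 in ZnSO4 + PBS, without overlap, a log2 fold change of −3.16 ± 0.68 (edgeR adjusted p = 0.0247). This call was lost without water + PBS 2 or 3 or any of the ZnSO4 + PBS libraries (adjusted p up to 0.0992, and −2.59 without water + PBS 3). Igkv9-124 had 130, 140 and 95.02 against 34.9, 22.9 and 22.2, again without overlap (−2.19 ± 0.49, adjusted p = 0.0282), and was lost without water + PBS 1 or 2 or any of the ZnSO4 + PBS libraries (up to 0.112). Igkv4-57 had 1198, 399 and 1759 against 201, 210 and 274 (−2.29 ± 0.56, adjusted p = 0.0409) and kept its call only without water + PBS 2, water + Dex 1, water + Dex 2 or ZnSO4 + Dex 2 (up to 0.137 otherwise). Igkv6-20 had 207, 65.2 and 131 against 25.5, 52.2 and 22.2 and did not pass (−2.01, adjusted p = 0.109).

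In water + Dex against water + PBS, V genes moved in both directions. Of the 160, 1 rose (0.625%) and 4 fell (2.5%), beside 2.79% of all genes that rose and 1.64% that fell. The median log2 fold change of V genes was 0.08 and 75 of 160 were below 0, a near even split. The sign of this small median turned in some fits that left out a library (−0.31 to 0.20). The B cell markers, which range widely within groups, had a median log2 fold change of −1.52 in this comparison, and none of the 13 was called.

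The genes that fell were Igkv8-27, Igkv6-20, Ighv1-55 and Igkv9-124, and none of them overlapped between the groups. Igkv8-27, the third most used V gene, had 3563, 4124 and 798 normalised counts in water + PBS and 496, 510 and 250 in water + Dex (−2.76 ± 0.79, edgeR adjusted p = 0.0491). Igkv6-20 had 207, 65.2 and 131 against 15.6, 23.8 and 30.3 (−2.53 ± 0.68, adjusted p = 0.0377). Ighv1-55 had 1584, 1470 and 781 against 365, 164 and 301 (−2.21 ± 0.55, adjusted p = 0.0246). Igkv9-124 had 130, 140 and 95.02 against 54.6, 10.8 and 19.5 (−2.11 ± 0.49, adjusted p = 0.0175). The only gene that rose, Ighv14-1, had 20.4, 11.04 and 10.5 in water + PBS and 140, 60.5 and 63.8 in water + Dex (2.65 ± 0.71, adjusted p = 0.0370).

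Igkv9-124 and Igkv6-20 were also low in ZnSO4 + PBS, but the 2 comparisons share the water + PBS libraries. In ZnSO4 + Dex, Igkv9-124 had 38.4, 83.6 and 35.2 normalised counts and Igkv6-20 305, 82.6 and 49.1, so Igkv6-20 overlapped with water + PBS there and Igkv9-124 did not. The call of Igkv9-124 with Dex was lost without water + PBS 2, water + Dex 2 or water + Dex 3 (adjusted p up to 0.0784) and its change was −3.001 without water + Dex 1. Ighv1-55 was lost without water + PBS 1 or 2 or any water + Dex library (up to 0.0988), and Igkv6-20 without water + PBS 1 or 3, any water + Dex library or ZnSO4 + PBS 1 (up to 0.131). Igkv8-27 was kept only without water + PBS 3 or a ZnSO4 + PBS library (up to 0.172 otherwise), and Ighv14-1 only without ZnSO4 + PBS 3 or a ZnSO4 + Dex library (up to 0.131 otherwise). Igkv6-20 differs from Igkv6-29, a V gene under the sum of 100, by 5 of 298 exon bases.

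In ZnSO4 + Dex against water + Dex, again 0 V genes rose and 4 (2.5%) fell, against 0.696% and 1.2% of all genes. At an unadjusted p under 0.05, 9 were higher and 36 lower (28.1%, against 19.1% of all genes), and DESeq2 called 2 higher and 8 lower. The median log2 fold change of the V genes was −0.66 (0.01 for all genes), 107 of 160 were below 0, and the median lay between −1.27 and −0.44 when each library was left out. Ighv1-69 fell by 3.22 ± 0.62 on the log2 scale (edgeR adjusted p = 0.0140). It was lost only without water + Dex 1, with an adjusted p of 0.0506. Iglv1, the main lambda V gene, had 505, 1055 and 1534 normalised counts in water + Dex and 223, 372 and 323 in ZnSO4 + Dex without overlap (−1.75 ± 0.43, adjusted p = 0.0442), and kept its call only without water + PBS 3, water + Dex 1, ZnSO4 + PBS 2 or ZnSO4 + PBS 3 (up to 0.158 otherwise). Igkv13-84 had 949, 20.5 and 306 against 9.33, 32.7 and 0, which overlap (−4.88 ± 1.24, adjusted p = 0.0491), and was kept only without water + Dex 2 (−3.50 without water + Dex 1 and −6.45 without ZnSO4 + Dex 2). Igkv4-69 had 53, 25 and 5 raw counts against 2, 3 and 1, a ratio of 14.8. The 95% counting interval of this ratio, 6.52 to 41.5, pools the libraries of a group and leaves out the spread between them. The fitted log2 fold change of Igkv4-69 was −3.82 ± 0.91 (SE, edgeR adjusted p = 0.0367). Its call was kept only without water + PBS 2, water + PBS 3, water + Dex 3, ZnSO4 + PBS 1 or ZnSO4 + PBS 3 (up to 0.148 otherwise).

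In ZnSO4 + Dex against ZnSO4 + PBS, 1 V gene rose (0.625%) and 0 fell, whereas 3.41% of all genes rose and 2.4% fell. At an unadjusted p under 0.05, 17 were higher and 9 lower (16.25%, against 26.3% of all genes), and DESeq2 called 4 in each direction. This gene was Iglv3, a lambda V gene with little sequence in common with the other lambda V genes (58.84% identity to Iglv1). It had 43.4, 64.1 and 30.6 normalised counts in ZnSO4 + PBS and 1750, 276 and 266 in ZnSO4 + Dex, without overlap (4.05 ± 1.16, edgeR adjusted p = 0.0390). Without ZnSO4 + Dex 1, which held 54.9% of all its normalised counts, the change was 2.55 and the adjusted p 0.181. The call was also lost without any of the ZnSO4 + PBS libraries. The median log2 fold change of V genes was 0.03, with 77 of 160 below 0.

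Mice given both treatments, compared with water + PBS, showed 12 V genes that fell (7.5%) and 0 that rose, beside 4.56% and 5.1% of all genes. At an unadjusted p under 0.05, 30 were lower and 8 higher (23.75%, against 35.98% of all genes), and DESeq2 called 14 lower and 3 higher. The median log2 fold change was −0.69 and 112 of 160 were below 0. Ighv1-69 fell by 4.29 ± 0.63 on the log2 scale (edgeR adjusted p = 5.6e-04) and kept its call without any 1 library. Ighv2-3 had 1, 646 and 673 raw counts in water + PBS and 1, 3 and 1 in ZnSO4 + Dex, a ratio of 252 between the groups. The 95% counting interval of this ratio, 108 to 779, pools the libraries of a group and leaves out the spread between them. The fitted log2 fold change of Ighv2-3 was −7.88 ± 2.00 (SE, edgeR adjusted p = 0.0151). The groups overlapped because water + PBS 1 was as low as the treated libraries, and the call was lost without ZnSO4 + Dex 1 or 3.

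The next largest falls were those of Ighv1-15, Ighv5-4 and Igkv3-12. Ighv1-15 had 234, 546 and 1973 normalised counts against 142, 28.8 and 28.8 (−3.79, adjusted p = 0.0204 by edgeR) and was lost without water + PBS 3 (−2.55) or ZnSO4 + Dex 2 or 3. Ighv5-4 had 226, 99.3 and 20.9 against 21.8, 6.72 and 12.8 with an overlap (−3.06, adjusted p = 0.0250) and was lost without water + PBS 1 (−2.12) or any ZnSO4 + Dex library. Igkv3-12 (−2.97, adjusted p = 0.0437) was lost without any water + PBS library, ZnSO4 + PBS 1 or ZnSO4 + Dex 1 or 2. Igkv19-93, which was at 2246 to 2885 in water + PBS and 427 to 666 in ZnSO4 + Dex (−2.21, adjusted p = 0.0334), was lost without any 1 of those 6 libraries. Iglv1 fell by 1.65 ± 0.43 on the log2 scale (adjusted p = 0.0177) and was lost without water + PBS 3 or ZnSO4 + Dex 1 and with the constant region covariate (adjusted p = 0.258). The remaining calls were Ighv1-64, Igkv6-32, Ighv1-9, Ighv1-81 and Igkv6-17, between −2.72 and −1.83.

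Averaged over both injections, ZnSO4 against water gave 15 V genes that fell (9.38%) and 1 that rose (0.625%), against 1.63% and 1.09% of all genes. These averages use the same libraries as the comparisons above and are no separate evidence. Ighv1-69 fell by 3.35 ± 0.43 on the log2 scale (edgeR adjusted p = 5.2e-04), with −3.58 to −3.16 over the fits that left out a library. Iglv1 had 762, 774 and 1336 normalised counts in water + PBS and 332, 453 and 159 in ZnSO4 + PBS, and with the Dex groups given above all 6 ZnSO4 libraries, at 453 or less, were below all 6 water libraries, at 505 or more. Ighv1-69 and Iglv1 were the 2 of 160 V genes lower without overlap in this way, beside 418 of 15938 genes tested. Iglv1 fell by 1.68 ± 0.31 (edgeR adjusted p = 0.0045) and kept its call without any 1 library, but not with the constant region covariate (adjusted p = 0.249). Igkv13-84 fell by 3.95 ± 0.87 (adjusted p = 0.0128) and was also kept without any 1 library, with −3.26 without water + Dex 1 and −4.74 without ZnSO4 + Dex 2, but not with the constant region covariate (adjusted p = 0.0992).

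Other calls of this average rested on particular libraries. Ighv2-3 (−5.40, adjusted p = 0.0209 by edgeR) was lost without water + Dex 3 (−3.85, adjusted p = 0.178), ZnSO4 + PBS 3 or ZnSO4 + Dex 1. Igkv4-69 (−2.60, adjusted p = 0.0226) was lost without water + PBS 1, water + PBS 2, ZnSO4 + PBS 3 or ZnSO4 + Dex 1. Ighv9-2 (−3.66, adjusted p = 0.0307) was kept only without water + PBS 1, water + PBS 3, water + Dex 3, ZnSO4 + PBS 2 or ZnSO4 + Dex 1. The other 9 falls, between −2.27 and −1.30, were those of Ighv1-81, Ighv5-4, Ighv1-64, Ighv1-63, Igkv17-121, Igkv19-93, Ighv1-76, Igkv6-32 and Igkv6-17. The gene that rose, Igkv12-89, had 9.72 to 41.1 normalised counts in the water libraries and 29.3 to 149 in the ZnSO4 libraries, which overlap (1.67 ± 0.50, adjusted p = 0.0479), and was kept only without water + PBS 2, ZnSO4 + PBS 2 or ZnSO4 + Dex 3.

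Averaged over both drinking waters, Dex against PBS gave 5 V genes that rose (3.12%) and 2 that fell (1.25%), against 3.67% and 2.64% of all genes. Ighv14-1 rose by 1.92 ± 0.49 on the log2 scale (edgeR adjusted p = 0.0151) and kept its call without any 1 library. In the ZnSO4 groups it had 18.9, 22.9 and 31.5 normalised counts with PBS and 17.6, 129 and 21.4 with Dex, so that there the difference lay in ZnSO4 + Dex 2, without which the average change was 1.16. Ighv13-2, whose values are given above, fell by 6.67 ± 1.67 (adjusted p = 0.0138). None of the 6 Dex libraries exceeded 19.4 normalised counts, but 2 of the 6 PBS libraries, at 3.01 and 0.926, were as low. Without ZnSO4 + PBS 1 the change was −4.07 (adjusted p = 0.0453). The calls of Igkv4-86 (3.27), Ighv1-85 (2.38), Ighv5-15 (2.15), Ighv1-53 (1.09) and Ighv1-55 (−1.14), with adjusted p-values of 0.0405 to 0.0496, were lost in 7 to 10 of the 12 fits that left out a library.

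No V gene passed the test of the interaction, that is, of whether the Dex change differed between zinc and normal water: 0 rose and 0 fell, as for all genes (0%), and the lowest adjusted p of a V gene was 0.952 (edgeR). At an unadjusted p under 0.05 there were 24 of 160 V genes (15%) against 4.98% of all genes, and 25 with DESeq2, which also called 0. The smallest p-values were those of Igkv6-20 (a difference of 4.65 ± 0.95 between the log2 changes, unadjusted p = 4.0e-04 by edgeR) and of Igkv9-124 (3.09 ± 0.69, unadjusted p = 8.9e-04), whose Dex changes in ZnSO4 mice were 2.12 ± 0.65 (adjusted p = 0.0519) and 0.98 ± 0.49 (adjusted p = 0.241).

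Lambda V genes could be set beside their constant regions, because the IGL locus of the mouse has few of either. On the minus strand of chromosome 16 the order of transcription was Iglv2 (19260401 to 19260859), Iglv3 (19241207 to 19241690), Iglc2, Iglv1 (19085017 to 19085500), Iglc3 and Iglc1. Over the 12 libraries, on log2 (normalised count + 1), Iglv1 followed Iglc1 closely (Pearson r = 0.982, Spearman rho = 0.972, both permutation p = 1e-05, the smallest that 100000 permutations can give, adjusted 9e-05 over 9 relations). The r was 0.971 without the 2 libraries farthest from the median of Iglv1, and 0.993 for deviations from the group means. Iglv3 followed Iglc2 (r = 0.864 and rho = 0.853, adjusted permutation p = 0.00121 and 0.00285; 0.764 without 2 libraries and 0.891 within groups). Both were highest in ZnSO4 + Dex 1, with 1750 for Iglv3 and 2307 for Iglc2.

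Iglv2, which lies upstream of Iglc2, followed Iglc3 (r = 0.803 and rho = 0.951, adjusted permutation p = 0.00489 and 9e-05; 0.911 without 2 libraries and 0.807 within groups). With Iglc2 its r was 0.517 and its rho 0.545 (adjusted permutation p = 0.194 and 0.16). This r was 0.124 without 2 libraries and 0.716 within groups. Iglc2 and Iglc3 share bases, 17.3% of the 31-base stretches of Iglc2 being present in Iglc3 and 25.1% of those of Iglc3 in Iglc2, so counts of these constant regions are less certain than those of Iglc1, which shares none with either. For the other 5 relations the adjusted permutation p was 0.447 or more. Correlated genes here share their libraries, and the V and constant parts of a chain are read from the same transcripts.

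**Figure D5:**
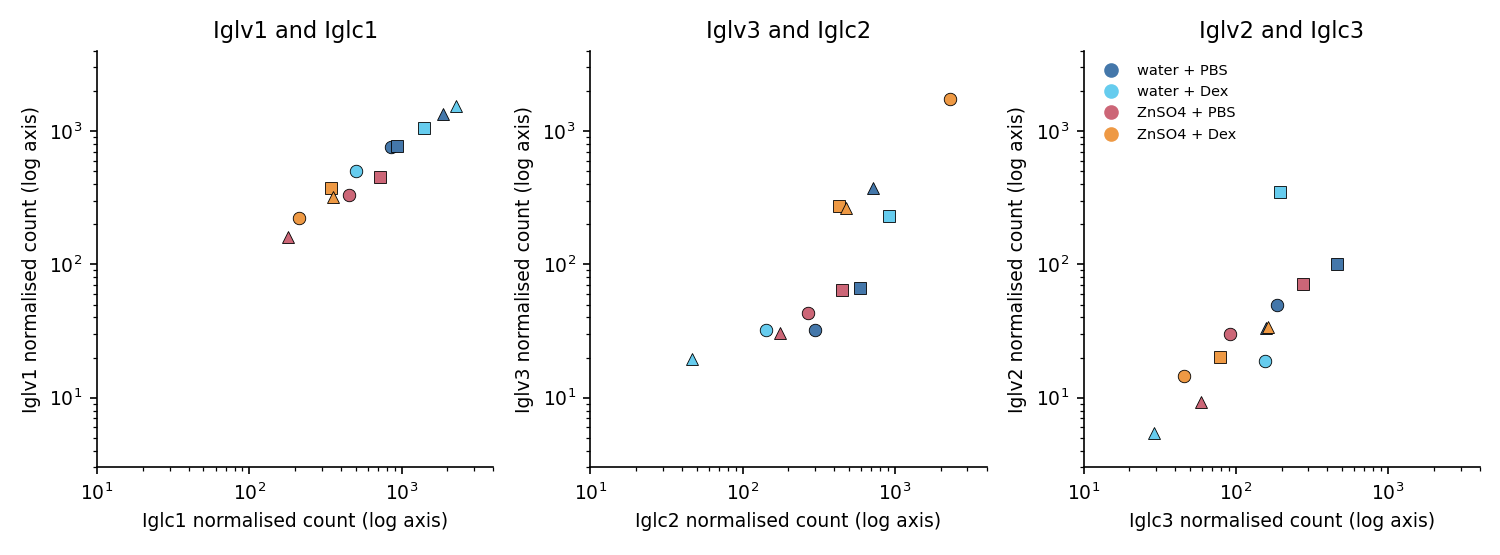
Normalised counts (log axes) of lambda V genes (vertical) and lambda constant region genes (horizontal) in the 12 libraries, coloured by group. Iglv1 and Iglc1 lie close to a line (r = 0.982), Iglv3 and Iglc2 reach their highest values together in ZnSO4 + Dex 1, and Iglv2 is above the trend with Iglc3 in water + Dex 2.

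Together the lambda V genes took 2.66%, 2.98% and 5.80% of light chain V counts in water + PBS and 2.26%, 4.41% and 5.39% in water + Dex. The share was 1.65%, 2.93% and 1.14% in ZnSO4 + PBS and 9.97%, 2.16% and 3.44% in ZnSO4 + Dex. Groups overlapped, and the highest value, in ZnSO4 + Dex 1, was that of the library with the Iglv3 peak.

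The main constant region genes and Jchain had differences with zinc that were not called. The median log2 fold change of V genes weighs each gene alike, so it is no measure of the summed V counts. Summed heavy chain V genes took a mean of 0.213% of a library in water + PBS and 0.159% in ZnSO4 + PBS. Kappa V genes took 0.265% and 0.187%. Igha, the constant region of IgA, had a log2 fold change of −0.46 ± 0.21 in ZnSO4 + PBS against water + PBS (edgeR adjusted p = 0.266) and Igkc, the kappa constant region, −0.39 ± 0.21 (adjusted p = 0.324). Jchain, which links IgA molecules, had −0.45 ± 0.19 (adjusted p = 0.212) and Ighm, the constant region of IgM, −0.54 ± 1.22 (adjusted p = 0.847). Averaged over both injections, Igha was at −0.42 ± 0.15 (adjusted p = 0.0928) and Jchain at −0.42 ± 0.14 (0.0648). Of 11 constant region genes tested only Iglc1 fell in that average (−1.82 ± 0.40, adjusted p = 0.0124), together with its partner Iglv1. Heavy chain V counts per Igha count lay between 0.185 and 0.285 in all libraries, and kappa V counts per Igkc count between 0.452 and 0.585. The kappa ratio was 0.512 to 0.565 in water + PBS and 0.453 to 0.510 in ZnSO4 + PBS, which did not overlap. The heavy chain ratio overlapped in these groups, and both ratios overlapped in the Dex groups.

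Of 12 plasma cell markers, 4 fell with ZnSO4 averaged over both injections, against 1.63% of all genes. These were Prdm1 (−0.86) and Irf4 (−0.80), transcription factors of plasma cells, Derl3 (−0.80), which clears misfolded secretory proteins, and Mzb1 (−1.02), a chaperone of antibody assembly. In PBS mice alone 1 of the 12 fell (Derl3), against 0.954% of all genes, and in Dex mice alone 1 (Mzb1), against 1.2%. The summed plasma cell markers were 35318 to 36827 in water + PBS and 24321 to 32344 in ZnSO4 + PBS, and the summed constant region genes 147329 to 179912 and 101169 to 129893, so these PBS groups did not overlap. The Dex groups did overlap, with 29160 to 37033 in water + Dex and 23753 to 31659 in ZnSO4 + Dex for plasma cell markers, and 124318 to 173093 and 99400 to 146242 for constant region genes. Of 10 T cell markers 5 fell with ZnSO4 averaged over both injections, against 1.63% of all genes. In Dex mice alone 3 of the 10 fell, and in PBS mice alone 1. The T cell sums overlapped in PBS mice (1049 to 1972 in water + PBS and 519 to 1156 in ZnSO4 + PBS). They did not overlap in Dex mice (1022 to 1366 in water + Dex and 570 to 580 in ZnSO4 + Dex). The summed smooth muscle markers were 18286 to 19450 in water + Dex and 20889 to 30347 in ZnSO4 + Dex, without overlap, and 14568 to 19021 in water + PBS and 17110 to 30818 in ZnSO4 + PBS, where ZnSO4 + PBS 3 was the highest of all libraries. The part of these cell types in the V gene results was not tested. The constant region covariate given above cannot decide it in PBS mice, because the constant region sums of those groups did not overlap. The slope of that covariate passed for no V gene (lowest adjusted p 0.9999, edgeR quasi-likelihood test). Its median over V genes was 1.02 (0.003 for all genes), and 102 of 160 slopes were above 0. With the B cell marker level as covariate, 68 of 160 slopes were above 0. In the same test Igkv3-7 had the lowest adjusted p, 0.0151 (slope −1.12), and Igkv8-30 had 0.0258 (slope 0.988). Of 13 B cell markers none was called in any comparison. Among genes for recruitment and survival of plasma cells, Ccr9, a gut homing receptor, fell in ZnSO4 + PBS (−0.95, adjusted p = 0.0361), and Ccl28, a chemokine that attracts IgA cells, rose with Dex in water mice (1.24, edgeR adjusted p = 9.6e-05). Among 9 regulators of V gene transcription, Irf8 fell with Dex in water mice (−1.34, adjusted p = 1.0e-04), and of 6 tested genes for V gene joining and its editing none was called with zinc or with Dex alone.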

How the data were processed

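RNA of 12 ileum samples was sequenced from stranded libraries with single-end reads. Per the labels and the methods, the authors mapped the reads to mm10 with HISAT2 2.0.4 and made gene counts with featureCounts, leaving out reads that mapped to several places. The deposited values are raw counts per gene. The annotation release and the strand setting of the counting are not given in the sources used here. Members, gene lists, marker lists and tests were chosen with earlier results of these data known.

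Genes were named with GENCODE M21, which matched 54723 of 54838 identifiers. Counts were filtered with filterByExpr (minimum count 10), scaled with TMM factors and fitted with edgeR 4.0.16 (R 4.3.3) as 4 group means over all 12 libraries, and 8 contrasts were tested over 15938 genes by the quasi-likelihood test. Genes were called at an adjusted p under 0.05 and a log2 fold change beyond 0.8 (no fold for the interaction). On counts drawn from the fit of ZnSO4 + PBS against water + PBS (15938 genes), edgeR recovered 53 of 100 genes changed 2-fold and 89 of 100 changed 4-fold, with 6 false calls. The changed genes were drawn from all genes tested, whose median biological coefficient of variation was 0.141. For V genes this median was 0.796, so these recoveries do not describe V genes. DESeq2 1.42.0, other scalings, filters and fold rules, covariates, a replicate block and leaving out each library were the alternatives. No 2 libraries agreed within sampling noise (chi-square per degree of freedom of 8.3 or more).

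The text names the 10 members with the highest usage, the leading member of each locus in each library, up to 5 called members per direction and comparison, all lambda members, Igkv6-20, Igkv9-124, the members at the threshold, some of the called genes of the lists (the rule chosen for naming allowed up to 3 per direction and comparison, and the others are given by counts or left out), and Igha, Ighm, Igkc and Jchain. Members dominated by 1 library, the most and least variable members, the 7 untested members and Ighv1-59 were named after their values were seen.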

Additional observations from a re-analysis of the deposited data

How the results depend on the processing

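The replicate numbers did not pair the libraries: deviations from group means correlated with a median r of −0.0491 over 18 pairs with the same number (−0.355 to 0.423) and 0.0304 over 36 pairs with different numbers. With the replicate block, calls among V genes were 5, 5, 4, 1, 13, 18 and 6 in the order ZnSO4 in PBS mice, Dex in water mice, ZnSO4 in Dex mice, Dex in ZnSO4 mice, both treatments, ZnSO4 averaged and Dex averaged (4, 5, 4, 1, 12, 16 and 7 without it), and 0 for the interaction. Calls of single genes were both lost and gained: among those lost were Ighv14-1, Igkv8-27 and Igkv6-20 with Dex in water mice, Igkv13-84 and Iglv1 with ZnSO4 in Dex mice, and Iglv3 with Dex in ZnSO4 mice. In the same order, fits without a filter on low counts called 11, 11, 12, 15, 28, 33 and 17. A test against the fold of 0.8 itself called 0, 0, 0, 0, 1, 1 and 0. DESeq2 called 7 with ZnSO4 in PBS mice, 8 with Dex in water mice, 10 with ZnSO4 in Dex mice, 8 with Dex in ZnSO4 mice and 26 with ZnSO4 averaged, giving no p for 18 V genes as count outliers. With 10 counts required in every library, calls were 2 with ZnSO4 in Dex mice, 4 with Dex in ZnSO4 mice, 9 with ZnSO4 averaged and 3 with Dex averaged. The constant region covariate left 1 call with ZnSO4 in PBS mice, 1 in Dex mice and 4 averaged. The B cell marker covariate gave 4 with Dex in ZnSO4 mice, and fits of the compared groups alone 8 with Dex in water mice and 2 with Dex in ZnSO4 mice. The cause of these shifts was not tested.

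Leaving out 1 library gave 1 to 6, 1 to 7, 1 to 6, 1 to 11, 7 to 14, 7 to 16 and 2 to 11 calls in the order above, and 0 to 0 for the interaction; the 11 with Dex in ZnSO4 mice came without ZnSO4 + Dex 3. In the order water + PBS, water + Dex, ZnSO4 + PBS and ZnSO4 + Dex, group means without 1 library were 0.480 to 0.495, 0.414 to 0.494, 0.320 to 0.388 and 0.292 to 0.421 percent for the V share, 95.6 to 97.2, 95.1 to 96.7, 97.7 to 98.6 and 93.3 to 97.2 percent for kappa among light chain V counts, 41.1 to 43.0, 37.2 to 38.9, 26.6 to 30.0 and 34.0 to 37.1 for the inverse Simpson number, and 65.0 to 65.3, 61.1 to 62.2, 47.4 to 53.6 and 53.9 to 56.9 for the Shannon number. With V genes of 1000 or more counts, the V share of water + PBS was 0.470 percent, the inverse Simpson number 39.0 in water + PBS and 34.3 in water + Dex, and the Shannon number 56.6, 52.6, 43.2 and 47.9. With all V genes the Shannon number was 67.1 in water + PBS and 63.0 in water + Dex, and without pseudogenes 64.8 in water + PBS. The 3699 recomputed values include counts of calls, shares and genes that were not called, for which no change of sign was scored. Among the recomputed log2 fold changes of called V genes, none changed sign. With 3 libraries a group and a spread of this size, a V gene that was not called may still differ, and the reads across joined or mutated bases that failed to map were not assessed.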
